A study of Mus musculus with 6 samples.

Results

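Collagens and laminins are the structural proteins of the extracellular matrix, and their transcripts were followed here in hippocampal RNA from *LAO1* KO pups. Every gene on the array whose symbol names a collagen alpha chain (Col, a type number, a, a chain number) or a laminin chain (Lama, Lamb or Lamc with a number from 1 to 5) was taken. This gave 52 genes, 42 collagens and 10 laminins, of 19505 genes with a symbol, and each lay on 1 transcript cluster, the probe set that measures a gene. They fell into 11 fibrillar collagens, 16 basement membrane chains (6 collagen IV chains and the 10 laminins) and 25 other collagens.

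*LAO1* encodes an L-amino acid oxidase that is secreted into mouse milk, where it produces hydrogen peroxide. Clariom S mouse arrays measured total RNA of whole hippocampus on postnatal day 10, 3 arrays in each group. In *LAO1* KO with WT milk the dams were WT, and in *LAO1* KO with KO milk the dams lacked *LAO1* too. All 6 pups therefore carried the knockout, which was kept on a C57BL/6Jcl background, and the groups differed in the genotype of the dam to which the newborns were cross-fostered. The comparison asks whether the milk of the nursing dam changes the transcripts of a pup that is itself KO. The sources used here do not give litters, so pups of 1 group may share a dam, and p-values measure only the spread between these arrays.

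The values are log2 intensities that were already normalized between arrays, so a difference of 1 is a doubling. They depend on the probes as well as on the RNA and are therefore compared within a gene and never between genes. Array medians lay between 6.89 and 6.92. KO milk replicate 3 stood apart over all clusters, at a distance (root mean square log2 difference) of 0.479 to 0.537 from the other arrays against 0.321 to 0.407 among those. Over the 52 genes it did not, with 0.362 to 0.434 against 0.341 to 0.431. The labels call every pup male, but the Y-linked gene *Uty* was high in 3 of the 6 arrays, WT milk replicates 1 and 3 and KO milk replicate 2. Y-linked signal was therefore unevenly spread over the groups, and the paper's methods state that neonates of both sexes were used. Of the hippocampal neuron markers, 8 of 10 were measured, with mean log2 intensities between 10.18 and 18.77. Their median difference (KO milk minus WT milk) was 0.04, 4 being above 0 and 4 below. Only *Prox1* passed an unadjusted p under 0.05 (difference 0.54, limma unadjusted p = 0.0149, adjusted p = 0.9996). Its replicates 1, 2 and 3 read 13.74, 13.44 and 13.6 for WT milk against 14.06, 14.39 and 13.96 for KO milk, without overlap. The part of neuron content in the collagen and laminin values was not tested.

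Collagens assemble from 3 alpha chains into a triple helix. Fibrillar collagens are trimmed outside the cell and form the rope-like fibrils of connective tissue, and in the brain they belong mainly to the meninges and the walls of larger vessels. Collagen IV does not form fibrils but builds a sheet, which is joined to a laminin network of alpha, beta and gamma chains by nidogens and perlecan. Together these make the basement membrane around capillaries and beneath the pial surface, to which endothelial cells, pericytes and astrocyte end feet attach. The remaining collagens decorate fibrils, form microfibrils or span the cell membrane.

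Collagen IV genes are arranged in head-to-head pairs, and in these data the pair with the largest differences was *Col4a1* and *Col4a2*. In the RefSeq annotation (GRCm38.p6) *Col4a1* starts at position 11312826 on the minus strand of chromosome 8 and *Col4a2* at 11312805 on the plus strand, so that the first 22 bases of both transcripts overlap. The stretch that ends 4 bases before the start of *Col4a2* (chr8:11312773-11312801, plus strand) is shown because it begins with a CCAAT box. By these starts it lies before *Col4a2* but within the transcribed part of *Col4a1*. *Col1a2*, a chain of type I collagen, is shown with the 250 bases before its start (chr6:4505368-4505617, plus strand) because they hold matches to both motifs marked. *Lamb3*, the chain with the largest difference, is shown with the 120 bases before its start (chr1:193301874-193301993, plus strand), and its 250 bases hold 0 matches. Capitals mark CCAAT boxes (CCAAT) and GC boxes (GGGCGG), searched on both strands.
*Col4a2*: CCAATttgttggcgctgccccctcccctc
*Col1a2*: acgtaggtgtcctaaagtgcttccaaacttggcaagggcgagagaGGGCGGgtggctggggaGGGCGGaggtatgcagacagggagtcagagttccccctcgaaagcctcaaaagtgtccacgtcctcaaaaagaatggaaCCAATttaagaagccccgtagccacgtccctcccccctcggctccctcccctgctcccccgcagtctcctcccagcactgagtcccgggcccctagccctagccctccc
*Lamb3*: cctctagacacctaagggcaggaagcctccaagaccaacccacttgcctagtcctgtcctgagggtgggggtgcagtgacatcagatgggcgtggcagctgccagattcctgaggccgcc

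The RefSeq table held promoter windows for 39 of the 52 genes, 43 windows in all, since some genes had several starts. A GC box lay in the 250 upstream bases of 53.5% of these windows against 32.7% of all 32851 windows, and their median GC content was 59.2% against 52.4%. It was present in 6 of 8 fibrillar, 5 of 11 basement membrane and 12 of 24 other windows. CCAAT boxes were found in 30.2% against 33.8%, and TATA boxes (TATAAA) in 11.6% against 12.4%. The windows with a TATA box were 2 fibrillar and 3 other, with 0 among the basement membrane windows. These matches describe the letters of the windows only.

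The 52 genes differed little between the groups, and so did genes in general: the median size of the difference was 0.16, beside 0.14 over all genes. Of them, 31 were higher and 21 lower with KO milk, so 59.6% lay above 0, against 50.5% of all 19505 genes. The share over all genes depends on intensity. With a mean log2 intensity of at least 6, it was 45.7% of 11832 genes, against 56.0% of the 25 collagens and laminins there. The differences of the 52 (KO milk minus WT milk) ran from -0.32 for *Col6a3* to 0.43 for *Lamb3*. Their median was 0.08 with quartiles of -0.07 and 0.21, beside a median of 0.00 and quartiles of -0.14 and 0.14 over all genes. None of the 52 reached a size of 0.5 (0 of 52), a size that 3.1% of all genes reached. All 52 intervals (95%, limma) lay within 1 log2 unit of 0, which was true of 94.8% of all genes, and 51 of them included 0. The standard errors of the single differences were 0.16 to 0.32, so differences of the size seen here could not be told from array-to-array spread.

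At a Benjamini-Hochberg adjusted p under 0.05, limma called 0 of the 52 genes and 0% of all 22206 clusters, and the adjusted p was 0.9996 for each of the 52. At an unadjusted p under 0.05, 0 of the 52 were lower, beside 1.7% of all genes, and 1 was higher, beside 1.46% of all genes. The unmoderated test per cluster also called 0 after adjustment and 1 at an unadjusted p under 0.05, the same gene, *Lamb3*. Both shares were close to the background. Since RNA of the whole tissue was measured, fewer cells of a type and less RNA per cell cannot be told apart.

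**Figure D1:**
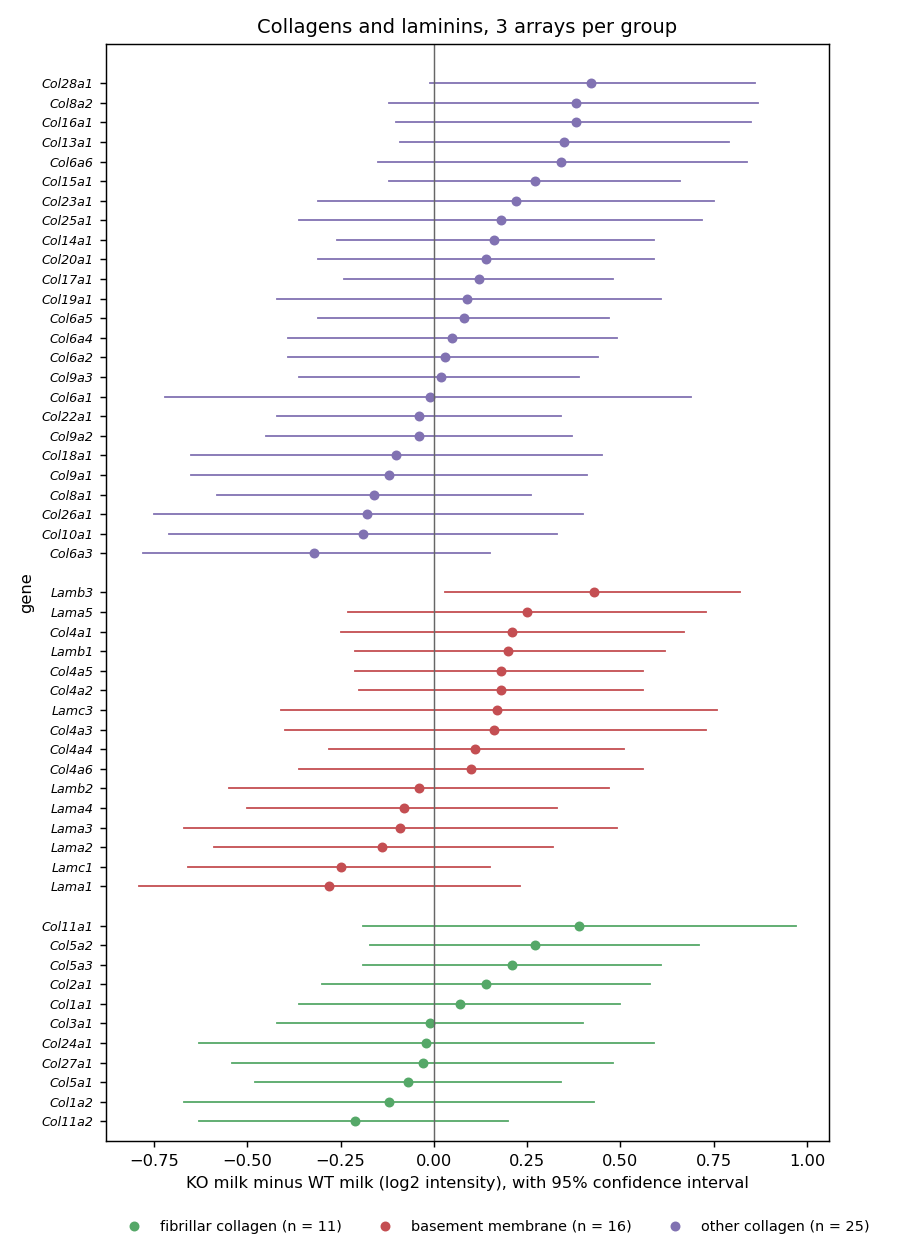
Difference between KO milk and WT milk (x axis, log2 intensity) for each of the 52 genes (y axis), grouped as fibrillar, basement membrane and other collagens. Points are differences of the means of 3 arrays and lines are 95% confidence intervals from limma, and only the line of *Lamb3* (0.03 to 0.82) stays clear of 0.

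**Figure D2:**
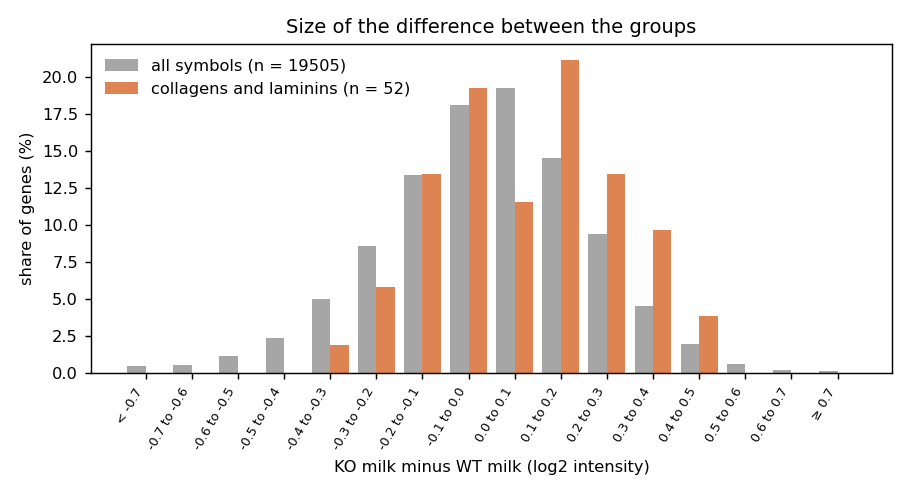
Share of genes (y axis, percent) by size of the difference between KO milk and WT milk (x axis, log2 intensity) for all 19505 genes (grey) and the 52 collagens and laminins (orange). The 52 genes fill the bins from -0.4 to 0.5 and leave the outer bins empty.

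Fibrillar collagens. The fibril-forming chains of connective tissue had overlapping levels in the groups. *Col1a1*, a chain of type I collagen, read 7.66, 7.18 and 7.16 with WT milk against 7.28, 7.37 and 7.56 with KO milk (log2 intensity, always in the order of replicates 1, 2 and 3). All KO milk values lay inside the range of the WT milk values, and the difference was 0.07 (SE 0.20). Its partner chain *Col1a2* had 7.99, 7.34 and 7.97 with WT milk against 7.50, 7.34 and 8.08 with KO milk, a difference of -0.12 (SE 0.25). The low and the high values were again mixed between the groups. *Col3a1*, the chain of type III collagen, which forms thin fibrils with type I in vessel walls and meninges, had 6.35, 6.22 and 6.24 against 6.06, 6.55 and 6.17. KO milk replicate 2 was the highest array and replicate 1 the lowest, and the means differed by -0.01 (SE 0.19). The interval for *Col3a1* was -0.42 to 0.40, for *Col1a1* -0.36 to 0.50 and for *Col1a2* -0.67 to 0.43.

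Type V collagen starts the assembly of type I fibrils. *Col5a1* was dim, averaging 3.32 ± 0.25 for WT milk against 3.26 ± 0.10 for KO milk (SD, n = 3 each), and its difference was -0.07 (SE 0.19). *Col5a2* had 4.64, 4.73 and 4.68 with WT milk against 4.83, 4.71 and 5.33 with KO milk, a difference of 0.27 (SE 0.20, limma unadjusted p = 0.201). KO milk replicate 3 lay far above the WT milk arrays, replicate 1 just above and replicate 2 within them. Without replicate 3 the difference was 0.08. *Col5a2* and *Col3a1* are neighbours on chromosome 1 in the RefSeq table, and *Col3a1* was not high in that array.

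*Col11a1* and *Col11a2* encode chains of type XI collagen, which forms the core of cartilage fibrils. *Col11a1* had 5.50, 5.57 and 4.57 with WT milk against 5.54, 5.80 and 5.46 with KO milk. Its difference of 0.39 (interval -0.19 to 0.97, limma unadjusted p = 0.167) was the largest among the fibrillar chains, and WT milk replicate 3 was far below every other array. Without that array the difference was 0.07 (limma unadjusted p = 0.756). *Col11a2* differed in the other direction, with 8.18, 7.77 and 7.72 against 7.82, 7.62 and 7.60, a difference of -0.21 (interval -0.63 to 0.20). KO milk replicates 2 and 3 lay below the WT milk range and replicate 1 within it. The other 4 fibrillar chains differed by -0.03 to 0.21.

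Over the 11 fibrillar chains the median difference was -0.01, with 5 above 0 and 6 below. Relative to the WT milk mean of each gene, the class median was 0.03 in KO milk replicate 1, -0.03 in replicate 2 and 0.10 in replicate 3, beside 0.08, -0.05 and -0.10 for the WT milk arrays themselves. The KO milk arrays thus spread no wider than the WT milk arrays around them. The median was 0.08 without KO milk replicate 2. None of the 11 had groups that did not overlap, beside 4.25% of all genes lower and 4.15% higher with KO milk, so the count is near that share.

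Markers of meningeal fibroblasts, the main source of fibrillar collagen at the brain surface, stood as follows. Of 16 markers, 15 were measured, their median difference was 0.07, and 0 of 15 passed an unadjusted p under 0.05 in either direction. Their summed log2 intensity was 14.20 to 14.63 with WT milk and 13.81 to 14.24 with KO milk, and 4 of the 15 lay under the lower quartile of all genes (4.92). *Igf2*, the growth factor gene that dominates this sum, had 14.51, 14.02 and 14.11 against 13.56, 14.09 and 13.79, a difference of -0.40 (limma unadjusted p = 0.0828). Of the 15 markers, 10 had a difference above 0 and 5 below, so the lower sum follows *Igf2* rather than most of the list. The summed level of the fibrillar chains was 9.66 to 9.97 with WT milk and 9.66 to 9.85 with KO milk. The part of the marker level in the fibrillar values was not tested.

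Collagen IV. All 6 chains of the basement membrane network had a higher mean with KO milk, by 0.10 to 0.21, and the 95% interval of each of the 6 differences included 0. *Col4a1*, one chain of the network found in every basement membrane, had 5.98, 6.31 and 6.13 with WT milk against 6.73, 6.09 and 6.23 with KO milk. Only KO milk replicate 1 lay above the WT milk range, and the difference was 0.21 (interval -0.25 to 0.67). *Col4a2*, the chain that assembles with it, had 7.39, 7.30 and 7.23 against 7.40, 7.38 and 7.68, a difference of 0.18 (interval -0.20 to 0.56). The array that raised the mean was replicate 3 here and replicate 1 for *Col4a1*, although the starts of both transcripts overlap.

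*Col4a3* and *Col4a4* lie next to each other on chromosome 1, and their products build, with that of *Col4a5*, the network of the kidney filter. *Col4a3* had 5.09, 4.89 and 5.02 with WT milk against 5.44, 5.53 and 4.52 with KO milk, so KO milk arrays lay on both sides of the WT milk range. Its difference was 0.16 (interval -0.40 to 0.73), and it was 0.49 without KO milk replicate 3 (limma unadjusted p = 0.0174), 0.02 without KO milk replicate 1 and -0.02 without KO milk replicate 2. *Col4a4* had 5.94, 5.85 and 6.06 against 6.26, 5.85 and 6.09, a difference of 0.11 (interval -0.28 to 0.51).

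*Col4a5* and *Col4a6* are neighbours on the X chromosome, and their products occur together in skin and smooth muscle. *Col4a5* had 4.41, 4.20 and 4.23 with WT milk against 4.27, 4.53 and 4.57 with KO milk, a difference of 0.18 (interval -0.21 to 0.56). *Col4a6* had 5.24, 5.32 and 5.02 against 5.41, 4.91 and 5.56, a difference of 0.10 (interval -0.36 to 0.56). For *Col4a6* the arrays without Y-linked signal (WT milk replicate 2 and KO milk replicates 1 and 3) held the 3 highest values. With the Y-linked signal as a covariate its difference was -0.04, and 5 of the 6 collagen IV chains stayed above 0.

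The median over the 6 chains was 0.17. By array it was 0.26 in KO milk replicate 1, 0.01 in replicate 2 and 0.22 in replicate 3, beside 0.06, -0.04 and -0.03 with WT milk. In KO milk replicate 1, 5 of the 6 chains lay above the WT milk range and 0 below it. In replicate 2 these were 2 and 2, and in replicate 3 they were 4 and 1. Over all genes, 24.9%, 22.5% and 31.3% lay above the range in replicates 1, 2 and 3, and 23.4%, 23.4% and 30.0% below it. The same direction in 6 of 6 chains is a description, since the chains were measured in the same arrays. Between the arrays of 1 group the chains varied more with KO milk (median SD 0.27) than with WT milk (median SD 0.11), beside 0.24 and 0.19 over all genes. The difference between these spreads was not tested.

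**Figure D3:**
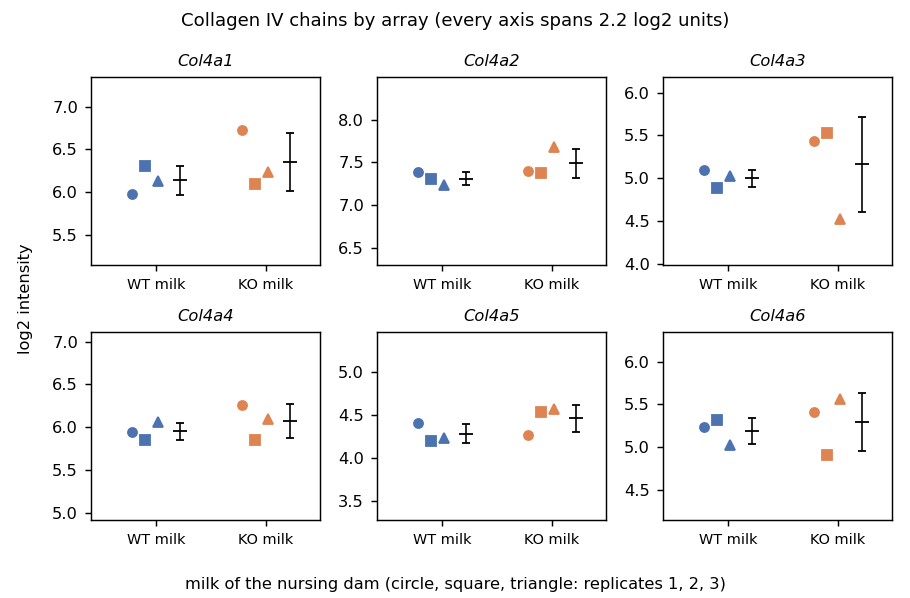
Log2 intensity (y axis) of the 6 collagen IV chains in the WT milk (blue) and KO milk (orange) arrays, with circle, square and triangle for replicates 1, 2 and 3, and the mean with SD in black. The groups overlap in all 6 panels, and *Col4a3* has KO milk arrays both above (5.44 and 5.53) and below (4.52) the WT milk arrays.

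Laminins. The laminin chains went in both directions, 4 above 0 and 6 below, with a median of -0.06. *Lamb1*, the beta chain of most vascular and early brain laminins, had 9.62, 9.93 and 9.74 with WT milk against 9.80, 9.89 and 10.21 with KO milk. Its difference was 0.20 (interval -0.21 to 0.62), and only KO milk replicate 3 lay above the WT milk range. *Lama4*, the alpha chain typical of blood vessel walls, had 8.83, 8.59 and 8.64 against 8.51, 8.41 and 8.87, a difference of -0.08 (interval -0.50 to 0.33). Here too replicate 3 was the highest KO milk array, and the other KO milk arrays lay below all WT milk arrays.

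*Lamb2*, the beta chain of synaptic and mature vessel basement membranes, had 8.67, 8.36 and 8.63 with WT milk against 8.16, 8.37 and 9.01 with KO milk. The KO milk arrays thus spanned both ends, and the means differed by -0.04 (interval -0.55 to 0.47). *Lama1*, an alpha chain of embryonic and pial basement membranes, had 6.55, 7.20 and 7.31 against 6.50, 6.94 and 6.78. The groups overlapped because WT milk replicate 1 was low, and the difference was -0.28 (interval -0.79 to 0.23, limma unadjusted p = 0.254). Without that array it was -0.51 (limma unadjusted p = 0.0368), without WT milk replicate 3 it was -0.13 and without KO milk replicate 1 it was -0.16 (limma unadjusted p = 0.619 and 0.561). The other 5 laminin chains apart from *Lamb3* differed by -0.25 to 0.25, and none passed the test.

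*Lamb3*, a beta chain known from the basement membrane under skin epithelium, was the gene with the largest difference of the 52. It had 3.76, 3.59 and 3.90 with WT milk against 4.20, 4.31 and 4.01 with KO milk. Every KO milk array lay above every WT milk array, the nearest being 4.01 and 3.90. The difference was 0.43 (SE 0.18, interval 0.03 to 0.82, limma unadjusted p = 0.0368, adjusted p = 0.9996), and the exact two-sided permutation test gave p = 0.1, the smallest that 3 arrays against 3 allow. Its mean lay under the lower quartile of all genes (4.92), as did that of 14 of the 52. When an array was left out the difference was 0.34 to 0.51. The unadjusted p of limma was then 0.0661 without WT milk replicate 1, 0.128 without WT milk replicate 2, 0.0838 without KO milk replicate 1 and 0.113 without KO milk replicate 2, but 0.0179 without KO milk replicate 3 and 0.0383 without WT milk replicate 3. With quantile normalization, cyclic loess and the replicate block the difference was 0.38, 0.38 and 0.43 (limma unadjusted p = 0.0644, 0.0658 and 0.0617). With array weights and with the Y-linked covariate it was 0.46 and 0.51 (limma unadjusted p = 0.0175 and 0.0241).

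**Figure D4:**
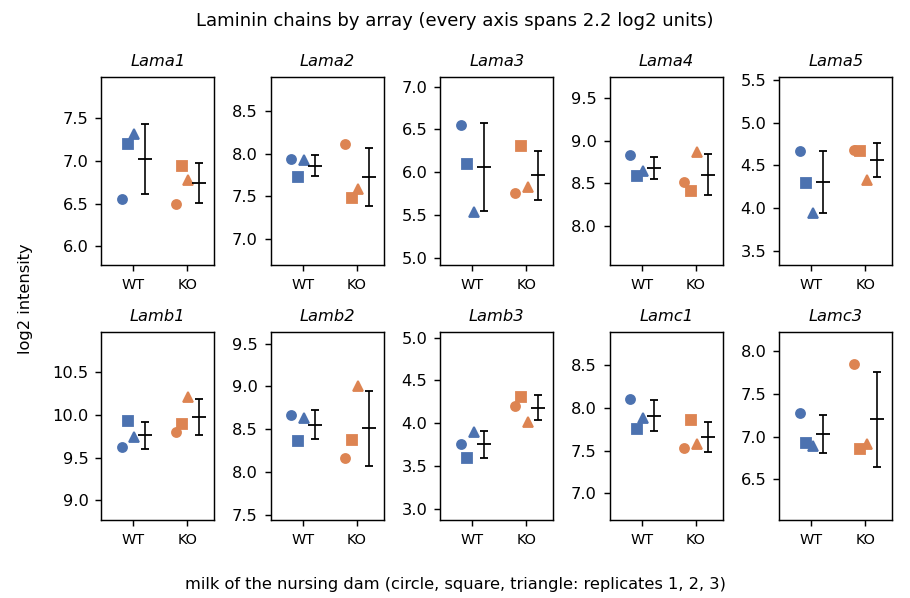
Log2 intensity (y axis) of the 10 laminin chains in the WT milk (blue) and KO milk (orange) arrays, with circle, square and triangle for replicates 1, 2 and 3, and the mean with SD in black. The groups are separate only for *Lamb3* (3.59 to 3.90 against 4.01 to 4.31).

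Over all 16 basement membrane chains the median difference was 0.14, with 10 above 0 and 6 below. It was 0.02 without KO milk replicate 1 and -0.04 over the 11 chains with a mean log2 intensity of at least 6. Endothelial markers, measured for 17 of 17 genes, had a median difference of 0.01 and summed to 13.82 to 14.18 with WT milk and 13.62 to 13.93 with KO milk. In 2 of these 17 the groups did not overlap with KO milk lower, beside 4.25% of all genes. With KO milk higher there were 0, beside 4.15%. Pericyte and smooth muscle markers, 12 of 12 measured, had a median of -0.01 and summed to 13.53 to 13.92 and 13.58 to 13.77. Of them, 6 differed above 0 and 6 below. The lowest was *Rgs5* (-0.71, interval -1.67 to 0.25), which read 10.0 in KO milk replicate 3 against 11.86 and 12.01 in replicates 1 and 2. In each list 1 marker lay under the lower quartile of all genes, and only the endothelial marker *Itm2a* passed an unadjusted p under 0.05 (difference -0.59, limma unadjusted p = 0.019). The sums of both lists overlapped between the groups, beside summed basement membrane chains of 11.48 to 11.52 with WT milk and 11.44 to 11.69 with KO milk.

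Other collagens. The 25 remaining collagens had a median difference of 0.08, with 16 above 0 and 9 below. *Col28a1*, a collagen with domains like those of von Willebrand factor that is found around Schwann cells, had 6.38, 6.67 and 6.56 with WT milk against 7.30, 6.75 and 6.84 with KO milk. All KO milk arrays lay above the WT milk arrays, replicate 1 by the most, and the difference was 0.42 (SE 0.20, interval -0.01 to 0.86, limma unadjusted p = 0.0568, exact permutation p = 0.1). It was 0.25 without KO milk replicate 1 (limma unadjusted p = 0.245) and 0.53 without KO milk replicate 2 (limma unadjusted p = 0.0364). *Col13a1* and *Col17a1* also had groups that did not overlap and were singled out for that after their values were seen. *Col13a1*, a transmembrane collagen of the neuromuscular junction, had 7.46, 7.66 and 7.56 against 7.79, 7.66 and 8.27, a difference of 0.35 (limma unadjusted p = 0.11) in which KO milk replicate 2 and WT milk replicate 2 were the same to 2 decimals, and without KO milk replicate 3 it was 0.17. *Col17a1*, a transmembrane collagen of skin hemidesmosomes, had 3.84, 3.91 and 3.84 against 4.08, 3.94 and 3.93, a difference of 0.12 (limma unadjusted p = 0.478).

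Together with *Lamb3* these were the 4 of 52 genes (7.69%) whose groups did not overlap with KO milk higher, beside 4.15% of all genes. In the opposite direction there were 0 of 52, beside 4.25% of all genes. The 4 transmembrane collagens, which shed their outer part from the cell surface, all had a higher mean with KO milk, by 0.12 to 0.35.

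*Col8a2*, a network-forming collagen of the corneal endothelium, had 8.39, 9.21 and 9.04 with WT milk against 9.36, 9.20 and 9.19 with KO milk. *Col16a1*, a collagen that attaches to fibril surfaces, had 8.11, 8.85 and 8.27 against 8.66, 8.87 and 8.84. Both differed by 0.38 (intervals -0.12 to 0.87 and -0.10 to 0.85), and in both WT milk replicate 2 lay with the KO milk arrays while WT milk replicate 1 was the lowest. Without WT milk replicate 2 the differences were 0.54 and 0.60 (limma unadjusted p = 0.0489 and 0.0151), and without WT milk replicate 1 they were 0.13 and 0.23 (limma unadjusted p = 0.516 and 0.339). *Col9a3*, part of the type IX collagen of cartilage, had 8.92, 8.80 and 8.65 against 8.82, 8.69 and 8.91, with a difference of 0.02 (interval -0.36 to 0.39).

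*Col6a3*, a chain of the beaded microfibrils of type VI collagen, had the lowest difference of the 52. It had 6.10, 6.37 and 6.21 with WT milk against 5.81, 5.61 and 6.31 with KO milk, so replicates 1 and 2 lay below all WT milk arrays and replicate 3 within them. The difference was -0.32 (interval -0.78 to 0.15, limma unadjusted p = 0.164), and it was -0.52 without KO milk replicate 3 (limma unadjusted p = 0.0166) and -0.16 without KO milk replicate 2 (limma unadjusted p = 0.479). The other 5 type VI chains differed by -0.01 to 0.34. The remaining 6 fibril-associated collagens differed by -0.12 to 0.16.

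Array by array. The small shift above 0 did not come equally from the KO milk arrays. Relative to the WT milk mean, the median over the 52 genes was 0.19 in KO milk replicate 1, -0.06 in replicate 2 and 0.13 in replicate 3, while the median over all genes was 0.01, -0.00 and 0.02. In replicate 1, 24 of the 52 (46.2%) lay above the WT milk range and 6 (11.5%) below it, beside 24.9% and 23.4% of all genes. In replicate 3 these were 19 (36.5%) and 10 (19.2%), beside 31.3% and 30.0%. Replicate 2 had 12 (23.1%) above and 15 (28.8%) below, beside 22.5% and 23.4%. Replicates 1 and 3 thus held the higher values, and replicate 2 lay close to the WT milk mean.

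The highest value of a gene lay in KO milk replicate 1 for 16 of the 52 genes, in replicate 3 for 14 and in replicate 2 for 7, and in WT milk replicates 1, 2 and 3 for 8, 5 and 2. Y-linked signal and choroid plexus markers also set KO milk replicates 1 and 3 apart from replicate 2, while the summed level of myelin markers was lower in every KO milk array. KO milk replicates 1 and 3 lacked Y-linked signal, whereas replicate 2 had it, and with that signal as a covariate the class medians were 0.05 for fibrillar, 0.08 for basement membrane and 0.00 for other collagens. Choroid plexus markers, 13 of 14 measured, summed to 11.31 in KO milk replicate 1, 18.20 in replicate 2 and 10.03 in replicate 3, beside 17.11 to 17.76 for the WT milk arrays. *Ttr*, the transthyretin gene that defines choroid plexus epithelium, had 17.74, 17.68 and 17.10 with WT milk against 10.76, 18.18 and 7.69 with KO milk, and none of the 13 markers lay under the lower quartile of all genes. Markers of myelinating oligodendrocytes, 11 of 12 measured, summed to 16.76 to 16.88 with WT milk and to 15.59, 16.33 and 16.00 with KO milk. In KO milk replicate 2, 7 of the 11 lay below the WT milk range and 1 above it. The part of choroid plexus and myelin content in the collagen and laminin values was not tested.

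**Figure D5:**
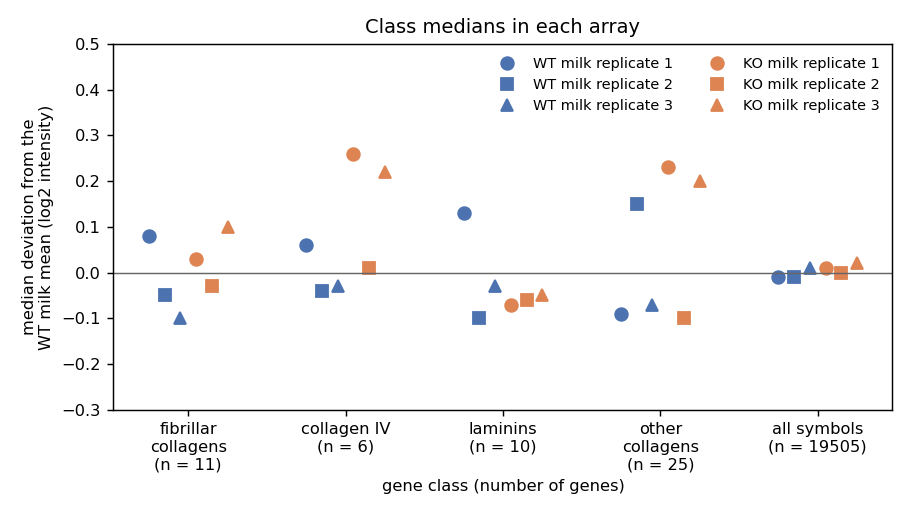
Median deviation from the WT milk mean (y axis, log2 intensity) in each array for fibrillar collagens, collagen IV, laminins, other collagens and all genes (x axis). For collagen IV, KO milk replicates 1 and 3 sit at 0.26 and 0.22 and replicate 2 at 0.01, and for laminins all KO milk arrays lie between -0.07 and -0.05.

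Genes that act on or with collagens and laminins. Of 95 genes on 5 lists (collagen processing and crosslinking, basement membrane partners, receptors, fibrillar matrix partners, metalloproteinases and their inhibitors), 88 were measured. At an unadjusted p under 0.05, 3 fell and 1 rose, beside the 1.7% and 1.46% of all genes given above, and 0 passed after adjustment. The list medians were -0.01 for processing (24 genes), 0.04 for basement membrane partners (18), -0.03 for receptors (18), 0.00 for fibrillar partners (14) and 0.07 for metalloproteinases and inhibitors (14). The fibrillar partners varied widely between arrays, with a median SD of 0.41 with WT milk and 0.62 with KO milk. Of their intervals, 57.1% lay within 1 log2 unit of 0, beside 94.8% over all genes. *Dcn* had 10.79, 10.38 and 11.41 with WT milk against 12.58, 10.46 and 9.28 with KO milk. Its difference was -0.09 (interval -1.50 to 1.32), and that of *Tnc* was 0.44 (interval -0.22 to 1.09).

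*P3h2*, a prolyl hydroxylase that modifies collagen IV, had 7.95, 7.67 and 7.56 with WT milk against 6.64, 7.62 and 7.21 with KO milk. Its difference was -0.57 (limma unadjusted p = 0.0435), the groups overlapped, and KO milk replicate 1 was the lowest array. *Fbln5*, an elastic fibre protein, had 7.27, 6.71 and 7.24 against 6.16, 6.63 and 6.67, a difference of -0.58 (limma unadjusted p = 0.0228) with all KO milk arrays below the WT milk arrays. *Itgb1*, the integrin beta chain shared by most collagen and laminin receptors, had 12.27, 12.32 and 12.24 against 11.91, 12.09 and 11.12. All KO milk arrays were lower, replicate 3 by 1.16 from the WT milk mean, and the difference was -0.57 (limma unadjusted p = 0.0396). *Gp6*, the collagen receptor of platelets, had 4.30, 3.74 and 3.90 against 4.12, 4.80 and 4.65, a difference of 0.54 (limma unadjusted p = 0.0367) with overlapping groups. Its mean lay under the lower quartile of all genes (4.92).

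*Sparc*, a matrix protein that binds collagen, differed by -0.11 (interval -0.47 to 0.25). *Agrn*, the basement membrane proteoglycan agrin, differed by 0.27 (interval -0.11 to 0.65), and *Dag1*, the laminin receptor dystroglycan, by 0.15 (interval -0.35 to 0.65).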

How the data were processed

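Total RNA from the hippocampus of 6 pups was hybridized to Clariom S arrays, 3 per group. The authors converted the scanned intensities to log2 values per transcript cluster with Transcriptome Analysis Console and RMA, which normalizes between arrays. The background step, the genome build and the annotation version are not given in the sources used here. The labels give an RNA input that differs from that of the methods. The deposited log2 values were used without further scaling or filter. Gene symbols were taken from the annotation of the array, and the 52 were all found in the RefSeq gene table (GRCm38.p6), which served for neighbouring genes.

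All 22206 clusters entered 1 linear model in R 4.3.3 with limma 3.58.1 (lmFit, eBayes, KO milk minus WT milk) with Benjamini-Hochberg adjustment, and the fit was tested on simulated data. Where a symbol had several clusters (55 symbols, 0 of the 52), the brightest was taken. Summed levels are log2 of the sum of linear intensities over a list. Single genes were also tested by exact permutation of the 6 arrays. Genes were named by rule: those at an unadjusted p under 0.05, the brightest 3 and the extreme differences of each class, all collagen IV chains, laminins with a mean of at least 8 and the main fibrillar chains. *Col13a1* and *Col17a1* lie outside it. Members and lists were chosen with earlier results of these data known. The alternatives were other scalings (common median, quantile, cyclic loess), intensity minimums of 6 and 8, array weights, another variance prior, an unmoderated test, a replicate block, a Y-linked covariate (mean of *Uty*, *Kdm5d* and *Eif2s3y*), all clusters of a gene and each array left out. The number of arrays limits the precision.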

Additional observations from a re-analysis of the deposited data

How the results depend on the processing

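With 3 arrays per group, single differences carried standard errors of 0.16 to 0.32, and 14 of the 52 genes lay under the lower quartile of intensity. The count of genes past an adjusted p under 0.05 was 0 under all 17 alternatives. At an unadjusted p under 0.05, the count of higher genes was 1 as reported, 2 with a common median, 0 with cyclic loess, 0 with a mean of at least 6, 0 with a mean of at least 8, 2 with array weights and 0 with the replicate block, and 0 to 3 when an array was left out. *Lamb3* and *Col28a1* were the pair with a common median and with array weights, and with quantile normalization the 1 gene was *Col28a1* (0.44) in place of *Lamb3*. The 3 without KO milk replicate 3 were *Lamb3* (0.51), *Col28a1* (0.49) and *Col4a3* (0.49), the genes without KO milk replicate 2 were *Col28a1* (0.53) and *Col6a6* (0.57), and those without WT milk replicate 2 were *Col16a1* (0.60) and *Col8a2* (0.54). The count of lower genes was 0 as reported, 1 with array weights (*Col6a3*, -0.43) and 0 to 1 when an array was left out (*Lama1* without WT milk replicate 1, *Col6a3* without KO milk replicate 3). The basement membrane median of 0.14 was -0.04 with a mean of at least 6 and -0.04 with a mean of at least 8, which leave 11 and 3 of the 16 chains, and 0.02 to 0.17 when an array was left out. The fibrillar median of -0.01 was -0.02 to 0.08 when an array was left out, and a mean of at least 8 left 0 fibrillar chains and gives no value. The median of the other collagens, 0.08, was 0.16 with a mean of at least 6 (10 genes), 0.38 with a mean of at least 8 (3 genes) and 0.03 to 0.16 when an array was left out.

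Of 398 values of 25 single genes under the alternatives, 358 kept their direction and side of the threshold, 7 lost and 11 gained an unadjusted p under 0.05, and 22 changed sign. The intensity minimums, the variance prior, the unmoderated test, the replicate block and all clusters of a gene cannot change the difference itself. The count of kept directions therefore includes values that were fixed in advance. The sign changes lay in 9 genes with small differences. With the Y-linked covariate *Col3a1* was 0.09, *Col4a6* -0.04 and *Col9a3* -0.02. *Col3a1* was 0.01 with a common median, *Col5a1* 0.02 with array weights and *Lamb2* 0.02 with quantile normalization. When an array was left out, *Col1a1* ran from -0.02 to 0.23, *Col1a2* from -0.34 to 0.03, *Col3a1* from -0.15 to 0.09, *Col4a3* from -0.02 to 0.49, *Col4a6* from -0.03 to 0.29, *Col5a1* from -0.16 to 0.07, *Col9a3* from -0.05 to 0.08, *Lama4* from -0.22 to 0.01 and *Lamb2* from -0.29 to 0.14. *Col28a1* ran from 0.25 to 0.53. The cause of these changes was not tested. Same-numbered arrays did not deviate together (correlations of 0.0247, -0.127 and 0.0163), so the numbers do not pair the arrays, and the replicate block left every difference as it was and changed only the call of *Lamb3* among the 52 genes.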

Other observations

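The chains described only by their range in the report complete the basement membrane picture, and they are given here for their roles, with their values known when they were chosen. *Lamc1*, the gamma chain of nearly all laminins, read 8.11, 7.75 and 7.88 with WT milk against 7.53, 7.86 and 7.58 with KO milk. KO milk replicates 1 and 3 lay below the WT milk range, and the difference was -0.25 (interval -0.66 to 0.15). *Lama2*, the alpha chain made by pericytes, muscle and meninges, read 7.94, 7.73 and 7.92 against 8.11, 7.48 and 7.59, a difference of -0.14 (interval -0.59 to 0.32). KO milk replicate 1 was the highest array and the other KO milk arrays were the lowest.

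*Lama5*, another alpha chain of vessel walls, read 4.67, 4.30 and 3.95 against 4.68, 4.67 and 4.33, a difference of 0.25 (interval -0.23 to 0.73), with overlapping groups. *Lamc3*, a gamma chain of the pial basement membrane, had 1 array apart, KO milk replicate 1 at 7.85, while the other 5 lay between 6.86 and 7.28, and its difference was 0.17 (interval -0.41 to 0.76). *Lama3*, which pairs with *Lamb3* in epithelia, differed by -0.09 (interval -0.67 to 0.49), so these partner chains had differences of opposite sign.

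Multiplexins are collagens of vessel basement membranes whose ends can be cleaved off. *Col15a1* read 5.08, 5.08 and 5.18 with WT milk against 5.15, 5.50 and 5.48 with KO milk, a difference of 0.27 (interval -0.12 to 0.66) in which KO milk replicate 1 lay within the WT milk range. *Col18a1*, the source of endostatin, read 5.14, 6.05 and 5.39 against 5.25, 5.29 and 5.73, a difference of -0.10 (interval -0.65 to 0.45) with all KO milk arrays inside the WT milk range. *Col6a6*, whose product is a type VI chain, was the largest difference among the genes not named in the report, 0.34 (interval -0.15 to 0.84), with 4.17, 4.42 and 4.20 against 4.69, 4.16 and 4.98. KO milk replicate 2 was the lowest array and the other KO milk arrays the highest. Its neighbours on chromosome 9, *Col6a5* and *Col6a4*, differed by 0.08 and 0.05.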
